A study of Drosophila melanogaster with 2 samples.

Results

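The telomere-proximal megabase of the large chromosome arms is the subject here: the outermost 1 Mb of arms 2L, 3L, 3R and X in a Hi-C interaction map of Drosophila Kc167 cells, an established cell line of embryonic origin. Members were the 10 kb bins of 2L, 3L and X from position 1 to 1000000 and of 3R from 26900001 to the end of the arm, in release 5 coordinates, that held at least 1 sequenced contact. The rule used position and coverage, and no interaction value. It gave 384 bins (96 on 2L, 91 on 3L, 100 on 3R and 97 on X) of the 9730 filled bins of these 4 arms and of 12752 in the whole map.

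Hi-C joins DNA fragments that were crosslinked while close in the nucleus, here after cutting with the 4-base cutter DpnII, and each valid junction read from both sides is a di-tag. A single group was assayed, untreated Kc167 cells, in 2 replicate libraries that the authors combined into 1 map before deposition. The pooled map held 34287983 di-tags, of which 87.9% lay within an arm. With 1 map there was no spread between replicates and no test over samples. The 95% intervals below are exact Poisson, exact binomial or Wilson intervals, and they cover counting error only.

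Drosophila telomeres are maintained by arrays of telomere-specific retrotransposons (HeT-A, TART and TAHRE) in place of telomerase repeats, followed inwards by satellite-like telomere-associated sequences and then unique, gene-bearing DNA. In the Rabl arrangement, which follows from the way chromosomes are pulled through anaphase, centromeres gather at one side of the nucleus and telomeres at the other, so that loci at like distances along different arms tend to be neighbours. Within arms, chromatin is folded into topologically associating domains (TADs), stretches that interact more within themselves than across their boundaries.

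The filled bins did not reach the assembly's end on every arm. On 2L the first filled bin was 40001 to 50000, with 4 of 100 bins empty, and on 3L it was 20001 to 30000, with 9 bins empty. All 100 bins were filled on 3R and 97 of 100 on X. The outermost protein-coding genes of each arm in the Release 6 annotation, used for names and order alone, were l(2)gl, Ir21a and Cda5 on 2L, where l(2)gl encodes the cell polarity protein and tumour suppressor Lethal giant larvae and Ir21a an ionotropic receptor. They were mthl8, CG43149 and Lsp1gamma, a larval serum protein gene, on 3L. They were Map205, a microtubule-associated protein gene, mod and krz, the beta-arrestin gene kurtz, on 3R. On X they were SteXh:CG42398, CG17636 and RhoGAP1A. Coverage differed between ends. The median number of di-tags per bin was 6209.5 at the 2L end, against 5531.5 over arm 2L. It was 5167 at the 3L end and 5458 over that arm, and 4942 at the X end and 5094 over that arm. The 3R end was the thinnest, with 3942 di-tags per bin against 6046.5 over arm 3R, 0.652 times the arm. The ratios of observed over expected trans di-tags below were corrected for this by the bins' inter-chromosome totals. The raw cis values and the shares of bin pairs and of di-tags were not.

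The ends of different chromosomes were in contact more often than their coverage predicts. Between the ends of 2L, 3L, 3R and X, over the 5 arm pairs that join different chromosomes, the map held 5762 di-tags against 3533 expected, an observed over expected ratio of 1.63 (95% interval 1.59 to 1.67). The expected number of a bin pair was the total of its arm pair shared out by the product of the bins' inter-chromosome totals. These totals include the contacts between ends. The ratios of an end over all partners therefore average close to 1, and an excess with some partners lowers the ratios with others. The comparison windows were the central 1 Mb of each arm (mid-arm) and the 1 Mb next to the centromere. Contacts of the ends with mid-arm windows were at 0.898 (0.875 to 0.922) and with centromere-proximal windows at 0.794 (0.771 to 0.817). Telomere-telomere contact was thus 1.59 times (1.52 to 1.67) that between mid-arm windows, which were at 1.02 (0.986 to 1.06) among themselves. Centromere-proximal windows contacted each other at 1.72 (1.67 to 1.78), and telomere-telomere contact was 0.946 times (0.908 to 0.986) that value. Which of both was higher depended on the setting. Telomere-telomere contact was the higher with all trans totals of the file (1.74 against 1.15) and with the centromere-proximal window moved inwards (1.63 against 1.12). It was also higher in windows of 500 kb (2.00 against 1.79), without 2L (2.14 against 1.56) and without 3L (1.77 against 1.61). It was the lower without 3R (1.49 against 2.09), without X (1.27 against 1.69) and in windows of 2 Mb (1.40 against 1.47). Counting each bin pair at most once (1.54 against 1.62) or leaving out bins with high totals (1.61 against 1.73) also left it the lower. Both were close with totals taken within each arm pair (1.65 against 1.67) and without the arm pair 2L-X (1.65 against 1.64). On the normalised signal telomere-telomere contact was far the lower (2.63 against 5.99).

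The size of the excess depended on which ends were paired. Contact was highest between the ends of 3R and X, with 1382 di-tags against 523 expected, a ratio of 2.64 (2.51 to 2.79). Between the ends of 3L and X the ratio was 1.74 (1.64 to 1.84) from 1149 di-tags, and between those of 2L and X it was 1.57 (1.49 to 1.66) from 1297 di-tags. The ends of 2L and 3R were at 1.33 (1.25 to 1.42) from 908 di-tags, and those of 2L and 3L at 1.22 (1.14 to 1.29) from 1026 di-tags. These last 2 intervals overlap, as do those of the pairs 3L-X and 2L-X in part, while the interval of the 3R-X pair lies above all others. The order of 2L-X and 2L-3R depended on the setting. With totals taken within each arm pair they were at 1.41 and 1.56, and on the normalised signal at 2.06 and 2.25. In 4 of the 5 arm pairs the ends were in closer contact than the mid-arm windows of the same arms. The exception was 2L-3L, where the mid-arm windows stood at 1.20 (1.11 to 1.29) and the ratio of both values, 1.01, had an interval of 0.920 to 1.12. Contact between the ends was above that with either mid-arm or centromere-proximal windows in every one of the 5 arm pairs. The telomere to centromere-proximal ratio lay between 0.773 for 3L-X and 0.844 for 2L-3L.

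**Figure D1:**
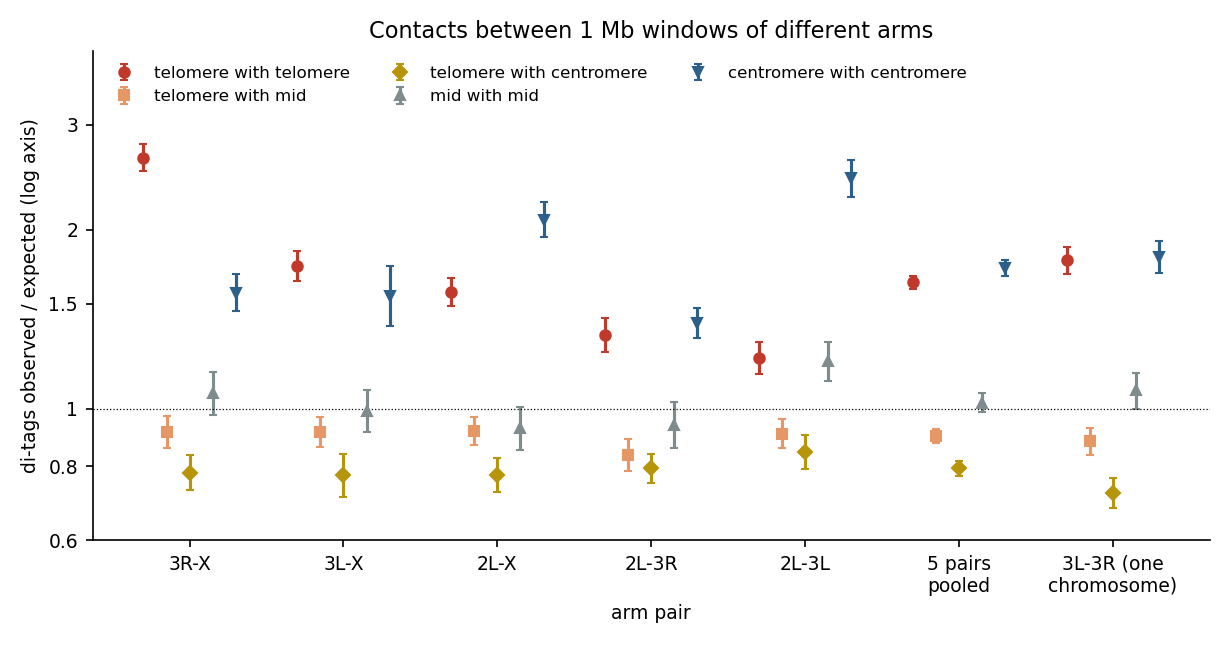
Di-tags observed over expected between 1 Mb windows of different arms, for each arm pair and for the 5 inter-chromosome pairs pooled, on a log axis with 95% Poisson intervals. Telomere with telomere contact (circles) runs from 1.22 for 2L-3L to 2.64 for 3R-X, while telomere with mid-arm and telomere with centromere contact lie below 1 in every arm pair. Values below 1 follow in part from an excess elsewhere, since the expected counts use the bins' own totals.

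Summed over partners, the ends of X and 3R had the greatest contact with other ends, at 1.91 (1.85 to 1.97) and 1.90 (1.82 to 1.98). The end of 3L was at 1.45 (1.39 to 1.51) and that of 2L at 1.37 (1.33 to 1.42). All 4 ends were below 1 with mid-arm windows, from 0.809 for 3R to 0.930 for X, and with centromere-proximal windows, from 0.706 for 3R to 0.819 for 3L. Leaving out X, and with it 3 of the 5 arm pairs, lowered the telomere-telomere ratio to 1.27, and leaving out 2L raised it to 2.14. The ends of 3L and 3R belong to opposite arms of chromosome 3 and were kept apart from the inter-chromosome values. Their contact was 1423 di-tags against 801 expected, a ratio of 1.78 (1.69 to 1.87), against 1.07 (1.00 to 1.15) between the mid-arm windows of these 2 arms.

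All arms were then cut into 1 Mb windows counted from the telomere, and each pair of windows on different chromosomes was treated as a block. Of 2801 such blocks, 90 reached a ratio of 1.25 (3.21%), and 4 of the 5 telomere-telomere blocks did. The 3R-X block of ends ranked first of the 594 blocks of its arm pair, where the median was 1.01. The 3L-X block of ends was at rank 3 of 528 and that of 2L-3R at rank 6 of 621. The 2L-X block of ends was at rank 17 of 506 and that of 2L-3L at rank 21 of 552. Within chromosome 3, the block of the 3L and 3R ends was at rank 3 of 648. These ranks describe 1 map, in which neighbouring blocks are not independent.

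Contact of the ends fell with the distance of the partner from its own telomere. With the first megabase of the partner arm the pooled ratio was 1.63, with the second 1.31 (1.29 to 1.34), with the third 1.22 (1.20 to 1.25) and with the fourth 1.14 (1.11 to 1.16). It remained between 1.05 and 1.16 out to 8 Mb and was below 1 in every megabase window beyond, although at 9 to 10 Mb its interval included 1 (0.967 to 1.02). At 20 to 21 Mb it was 0.795 (0.774 to 0.816). Values below 1 far from the telomere are in part set by the excess near it, since the expected counts use the same totals. Over partner bins 0 to 5 Mb from their telomere the ends were at 1.26, and over those at 10 to 15 Mb at 0.906. This near over far ratio was 1.39 (1.37 to 1.41). The highest window of the profile was the partner's own end for each of the 4 arms. The fall was not steady at every end. The 3L end was at 1.07 with partners at 2 to 3 Mb, 1.14 at 3 to 4 Mb, 0.982 at 5 to 6 Mb and 1.09 at 7 to 8 Mb. The 2L end had a second rise, which enters the pooled ratio. It was at 1.32 with partners at 5 to 6 Mb, where the other ends were between 0.982 and 1.09. With partners at 6 to 7 Mb it was at 1.33, and the other ends between 1.01 and 1.15. Its contact with X was higher at 5 to 6 Mb and 6 to 7 Mb from the X telomere, at 1.82 and 1.81, than with the X end itself at 1.57. In the same stretch, 2L bins 2 to 3 Mb from the telomere met X bins 6 to 7 Mb from theirs at 4.73, the highest block of that arm pair. The part of this patch in the 2L and pooled values was not tested beyond leaving out the whole 2L-X arm pair. That gave 1.65 for telomere-telomere contact and 1.31 for the near over far ratio. The mid-arm windows had a flatter profile, between 0.898 and 1.24, and the centromere-proximal windows a reversed one, lowest at 0.794 with the telomeres. The 1.24 was reached with partners at 18 to 19 Mb, where the mid-arm window of X was at 1.74.

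**Figure D2:**
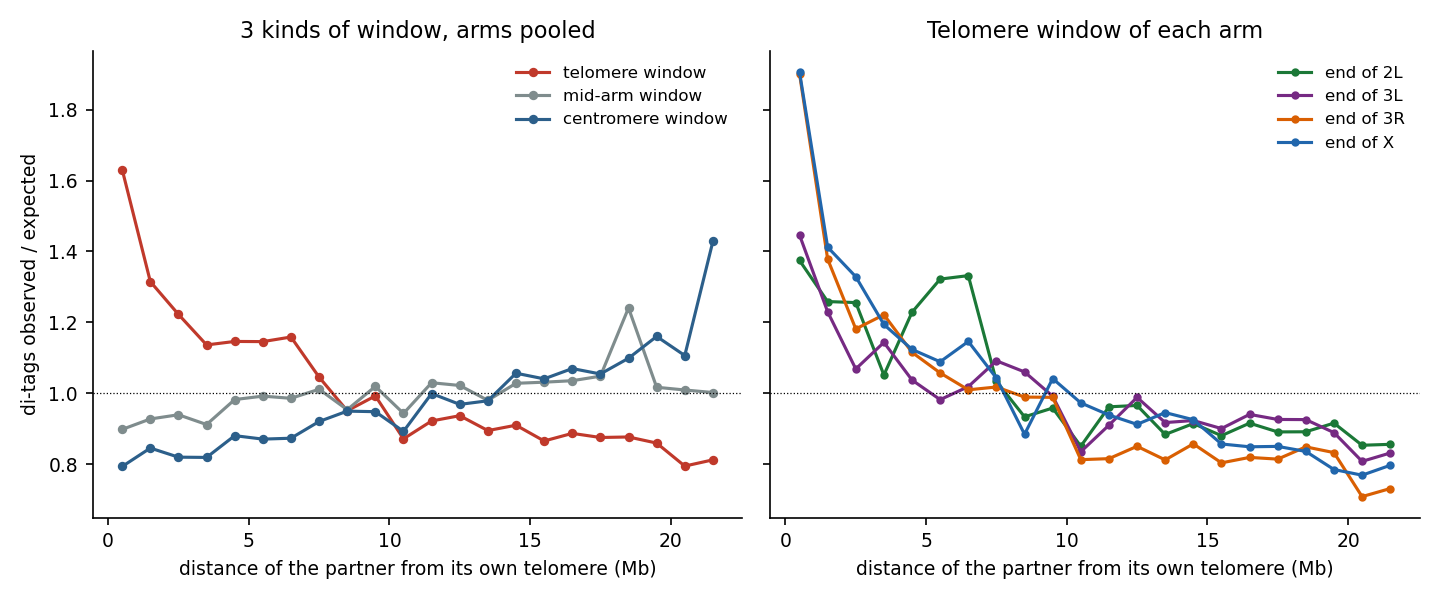
Di-tags observed over expected between a 1 Mb window and the megabase windows of arms of other chromosomes, against the distance of the partner from its own telomere in Mb. The left panel shows the pooled telomere, mid-arm and centromere windows, and the right panel the telomere window of each arm. The pooled telomere curve falls to below 1 from 8 Mb on, after 1.63 at the first megabase, and the 2L curve has a second rise at 5 to 7 Mb.

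Along the megabase, pooled contact was highest in the outermost part. In steps of 100 kb from the arm end, contact with the ends of other chromosomes was 2.30 (2.14 to 2.46) in the outermost step, 1.88 in the second and between 1.64 and 1.70 in the next 4, and between 1.42 and 1.50 in the innermost 4 steps. At the 3R end the ratio was 2.93 (2.67 to 3.21) in the outermost 100 kb and 1.45 (1.19 to 1.75) in the innermost, and at the X end it was 2.82 (2.48 to 3.20) and 1.59 (1.41 to 1.79). These intervals do not overlap at either end. The 2L end showed no such fall. Its outermost step was at 1.42, its lowest at 1.20 (200 to 300 kb) and its highest at 1.70 (500 to 600 kb). On 3L the outermost 100 kb held 1 filled bin with 0 di-tags to other ends, so that its profile starts at 100 to 200 kb with 2.14 (1.87 to 2.43), against 1.25 to 1.54 further in. This 3L rise comes from contacts with the ends of 2L and X, since 3R was not among its partners here. The steps were not computed without 3R-X.

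The outermost 100 kb of 3R and X were in the highest contact, though from few di-tags. Over the 5 arm pairs, the outermost 100 kb shared 60 di-tags against 9.31 expected, a ratio of 6.44 (4.92 to 8.30). Of these, 51 joined 3R and X, against 2.94 expected, a ratio of 17.4 (12.9 to 22.8). The outermost 100 kb of 2L shared 6 di-tags with that of X (1.84 expected) and 3 with that of 3R (4.53 expected). Without 3R-X, 9 di-tags stood against 6.37 expected, a ratio of 1.41 whose interval, 0.646 to 2.68, includes 1. The outer 500 kb of the ends contacted each other at 2.00 (1.90 to 2.10) and the inner 500 kb at 1.44 (1.37 to 1.52). Without 3R-X they were at 1.46 (1.37 to 1.56) and 1.39 (1.32 to 1.47), intervals that overlap. All 55 combinations of 100 kb steps were above 1, between 1.21 and 6.44.

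**Figure D3:**
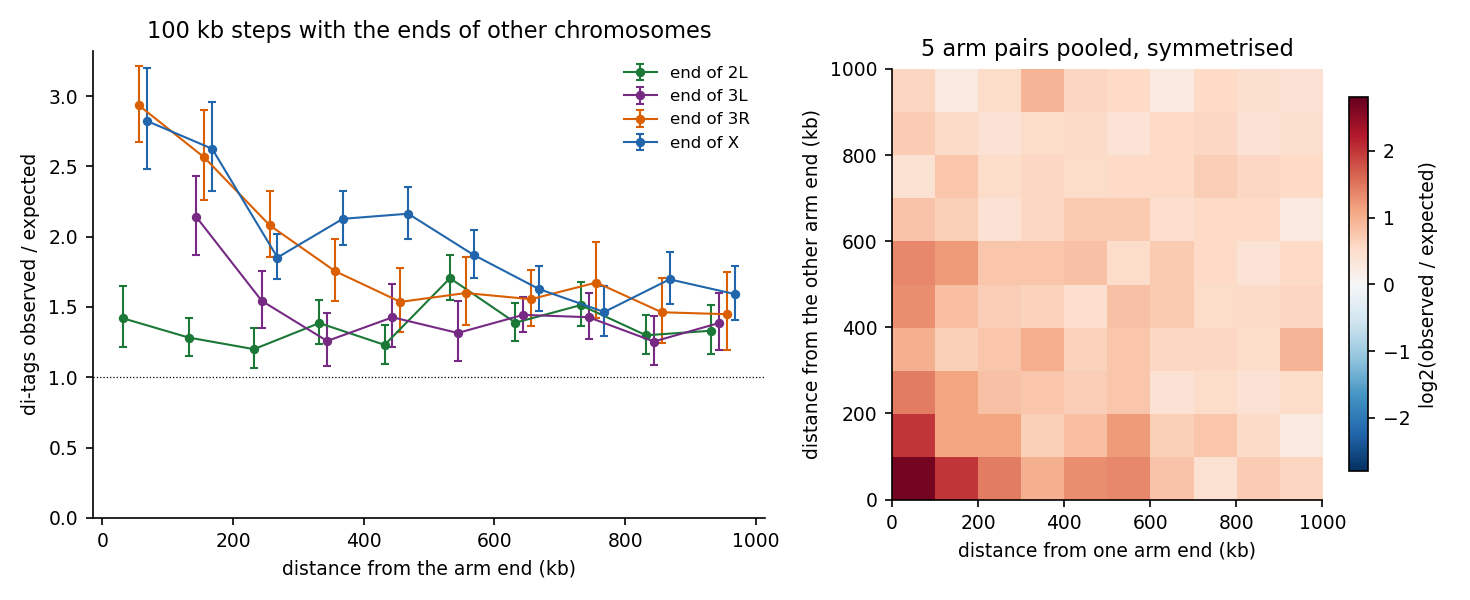
Left, di-tags observed over expected between 100 kb steps of each end and the ends of other chromosomes, against distance from the arm end in kb, with 95% Poisson intervals (steps with fewer than 5 filled bins left out). Right, log2 of observed over expected for each pair of steps, 5 arm pairs pooled. The 3R and X ends start at 2.93 and 2.82, the 2L end at 1.42, and the corner of both outermost steps is the highest cell at 6.44 on the linear scale, where 51 of 60 di-tags come from 3R-X.

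By their medians, single bins showed the same order of ends as the sums over partners. Of 324 telomere-proximal bins with at least 10 di-tags expected, 259 (79.9%) reached a ratio of 1.25 with the ends of other chromosomes, against 16.3% of the 7491 such bins outside the ends and 18.9% of all. The count was 83 of 87 bins on X, 61 of 69 on 3R, 64 of 92 on 2L and 51 of 76 on 3L. Among bins outside the ends the share differed by arm, at 23.5% on X, 14.9% on 3R, 12.8% on 2L and 13.6% on 3L. The median bin was at 1.84 on X and 1.79 on 3R, and at 1.38 on 3L and 1.37 on 2L. The highest bin of 3R was the outermost bin with di-tags, 27890001 to 27900000, with 65 di-tags against 14.2 expected (4.58, interval 3.53 to 5.83). The highest on X, 20001 to 30000, was also close to its end, with 48 di-tags against 12.9 expected (3.71, interval 2.74 to 4.93). On 3L the highest bin was 190001 to 200000 (2.90, interval 2.01 to 4.06), and on 2L it lay far from the end, at 520001 to 530000 (2.46, interval 1.95 to 3.07). The lowest bin of each end, from 0.803 on 2L to 1.08 on X, had an interval that includes 1. Neighbouring bins are not independent.

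The excess was spread over many bin pairs. Of 46175 inter-chromosome bin pairs between ends, 5185 held at least 1 di-tag, and together these held the 5762 di-tags. In 489 pairs (1.06%) there were 2 or more di-tags, against 0.26% of all inter-chromosome bin pairs. These 2 shares were not corrected for the bins' totals, and they do not measure how evenly the excess was spread. The fullest pair of each of the 5 arm pairs held between 3 and 6 di-tags. On 3R-X the fullest pair joined that outermost bin of 3R to X 150001 to 160000, with 6 di-tags against 0.0810 expected. The same X bin shared 6 di-tags with 3L 160001 to 170000. No fullest pair made up more than 0.522% of the di-tags of its block. When each bin pair was counted at most once, telomere-telomere contact stood at 1.54.

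On the normalised map the excess of the ends was larger, but the contrast with the centromere was not kept. Here the values are the GOTHiC-normalised signal relative to its mean over the arm pair, with no correction by bin totals. Telomere-telomere contact was at 2.63, telomere to mid-arm contact at 0.956 and mid-arm to mid-arm contact at 0.861. The arm pair 3R-X was again the highest (4.96) and 2L-3L the lowest (1.45), but 2L-3R (2.25) stood above 2L-X (2.06). Telomere to centromere-proximal contact, below 1 in raw di-tags, was at 1.67 on this signal, and at 1.38 without the thinly covered bins. The centromere-proximal windows of 2L, 3L and X had low totals, with a median of 1295.5 di-tags per bin on 3L against 5458 over that arm, whereas that of 3R had 7191 against 6046.5. The part of these totals in the reversal was not tested.

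A larger share of contacts of the ends went to other chromosomes. Of the di-tags of telomere-proximal bins, 10.4% joined another large chromosome, against 8.42% in mid-arm windows, 11.0% in centromere-proximal windows and 8.62% in all other bins. The share was 10.0% at the 2L end against a median of 8.37% over the other 1 Mb windows of 2L, and 8.56% at the 3L end against 7.25% over those of 3L. It was 9.17% at the 3R end against 6.77% over the other windows of 3R, and 14.3% at the X end against 12.3% over those of X. The telomere window was at rank 3 of 23 on 2L, 3 of 24 on 3L, 2 of 27 on 3R and 4 of 22 on X.

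Within the arms, interaction at the ends of 2L, 3L and 3R fell off faster with distance than over most of the arm, and the X end did not stand apart. Cis values were divided by the mean of the arm at the same distance. In raw di-tags, the ends were at 1.06 times the arm at 20 to 100 kb and at 0.657 times at 200 to 800 kb. The short over long range ratio was 1.61 in raw di-tags and 1.51 in the normalised signal. At the 3L end it was 2.09, the highest of the 24 windows of its arm, where the median of the others was 0.966. At the 2L end it was 1.57 (rank 4 of 23, median of the others 1.09) and at the 3R end 1.49 (rank 4 of 27, median 0.994). The X end, at 1.34, was at rank 8 of 22, with a median of 1.20 elsewhere. On the normalised signal the ratios were 1.66 for 2L, 2.19 for 3L, 1.51 for 3R and 1.20 for X, the last below the median of its arm, 1.27.

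The level at either distance depended on the unit. Its direction is not settled at the 2L and 3L ends at 20 to 100 kb, nor at the X end at 200 to 800 kb. At the 3R end it is not settled at either distance. At 20 to 100 kb the 2L end was at 1.15 times its arm in raw di-tags (rank 8 of 23) and at 0.869 in the normalised signal (rank 18 of 23). The X end was at 1.03 (rank 13 of 22) and 1.24 (rank 2) and the 3L end at 1.33 and 1.00, in raw di-tags and normalised signal. At this distance the 3R end was the lowest of 27 windows in raw di-tags (0.742) and the highest in the normalised signal (1.65). At 200 to 800 kb it was at 0.497 in raw di-tags and 1.09 in the normalised signal, and the X end was at 0.767 and 1.04. The 2L and 3L ends were below their arms at 200 to 800 kb in both units, at 0.737 and 0.634 in raw di-tags and at 0.522 and 0.456 in the normalised signal. Between adjacent bins, 10 kb apart, the 2L and 3L ends were the highest windows of their arms in raw di-tags, at 1.52 and 1.64, and in the normalised signal, at 1.28 and 1.43. The 3R end was there at 0.753 in raw di-tags (rank 24 of 27) and at 1.58 in the normalised signal (rank 1). The X end was at 0.902 (rank 16 of 22) and 1.42 (rank 2), so the direction at the 3R and X ends is not settled at 10 kb either. At the 2L end the mean was 520 di-tags per bin pair at 10 kb and 2.61 at 500 kb, against 343 and 5.50 over the arm. The study's own short and long range profile left out positions less than 1 Mb from a chromosome end.

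**Figure D4:**
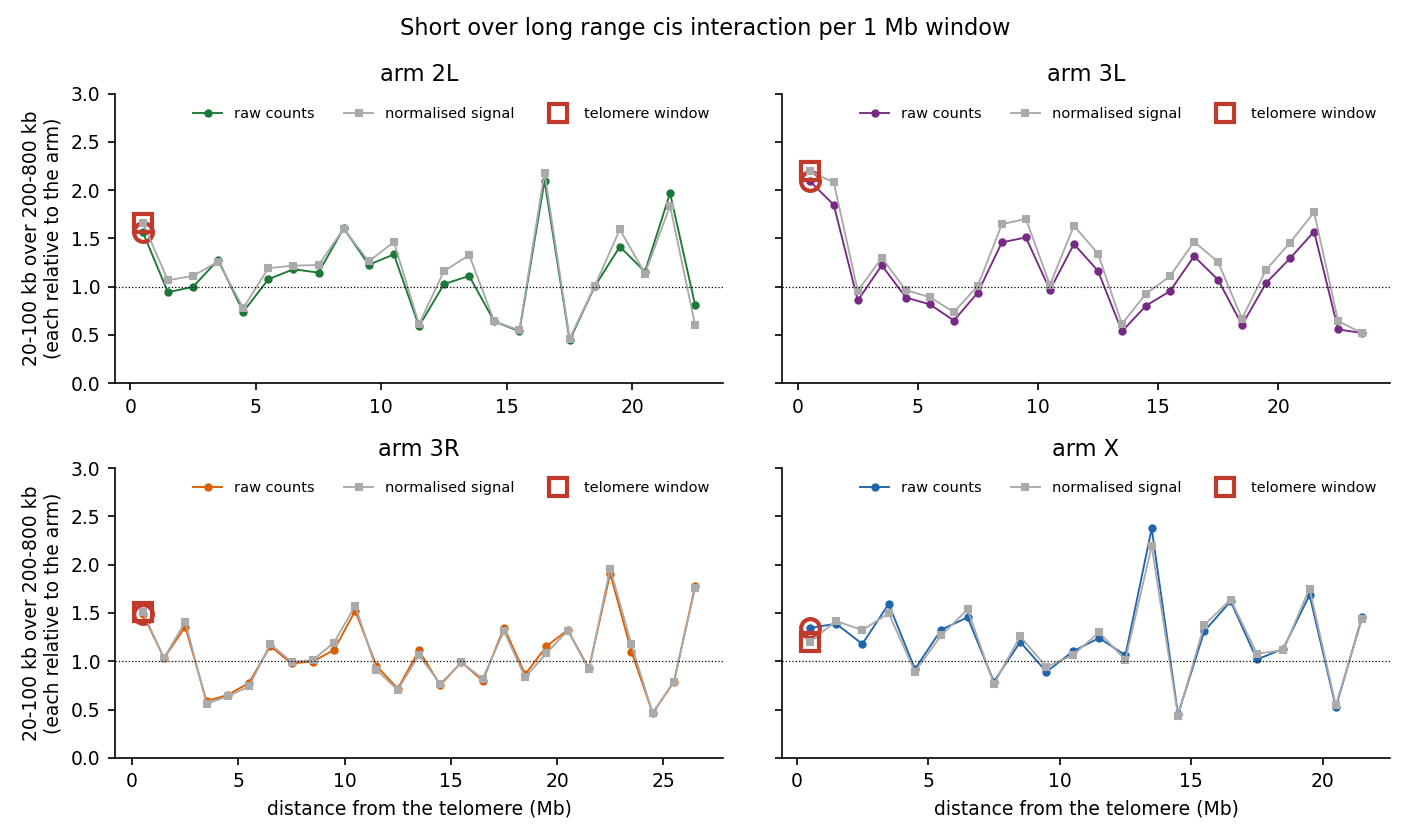
Cis interaction at 20 to 100 kb over that at 200 to 800 kb, each relative to the arm mean at equal distance, for each 1 Mb window against its distance from the telomere in Mb, in raw counts and normalised signal. The telomere window (ringed) is the highest of arm 3L at 2.09 in raw counts, and on X at 1.34 it lies within the spread of other windows.

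TADs were slightly smaller at the ends. The authors' segmentation placed 54 TADs with their centre in the telomere-proximal megabases, with a median of 50 kb (quartiles 40 and 105 kb), against 60 kb (40 and 120 kb) for the other 998 TADs of the 4 arms. TADs of 40 kb or less made up 25 of 54 (46.3%), against 30.5% of all TADs of these arms. The difference in medians was largest on 2L, where 16 TADs had a median of 40 kb against 60 kb in the rest of the arm. No other of its 23 windows held more than 16, but another window also held 16. On 3L the median was 55 kb at the end and 70 kb in the rest of the arm, on 3R 60 kb and 70 kb, and on X both were 50 kb. The share of TADs of 40 kb or less was higher at each end than in the rest of its arm. It was 56.2% against 32.0% on 2L and 42.9% against 28.2% on 3L. On 3R it was 33.3% against 25.1%, and on X 50.0% against 34.4%. A bin is 10 kb, and the quartiles of the ends and of the other TADs overlap. Each end still held large TADs. The largest were 2L 580001 to 810000 and 3R 27640001 to 27870000, both of 230 kb, X 170001 to 370000 of 200 kb and 3L 880001 to 1040000 of 160 kb, which reaches past the megabase. The outermost TADs were short, from 30 kb on 2L (50001 to 80000) and X (10001 to 40000) to 40 kb on 3L (100001 to 140000). The outermost TAD of 3R, of 35.1 kb, ran to the end of the arm at 27905053.

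Boundaries between TADs were deeper at 3 of the 4 ends. For each boundary, the mean interaction across it within 50 kb was set over that within the 50 kb on both sides, in the normalised signal relative to the arm at equal distance, as a log2 ratio. The ends held 50 boundaries, of which 48 could be measured, with a median of -1.04 against -0.82 for the other 973. All 48 were below 0, as were 95.3% of all boundaries. The authors called the boundaries on this same map, so values below 0 follow largely from how boundaries were chosen. Below -1, lay 27 of 48 (56.2%), against 35.2% of all. The medians were -1.11 at the 2L end, -1.04 at the 3L end and -1.03 at the 3R end, against -0.80, -0.81 and -0.78 in the rest of these arms. At the X end the median was -0.84 against -0.87. Among 1 Mb windows of its own arm, the median of the 2L end was the lowest of 23, that of 3L the second lowest of 24, that of 3R at rank 6 of 27 and that of X at rank 13 of 22. Over bin edges in general, the median log2 ratio was low only at the 2L end (-0.418, rank 2 of 23) and the 3L end (-0.268, rank 3 of 24). It was 0.0974 at the 3R end (rank 17 of 27) and 0.0234 at the X end (rank 13 of 22). At 3R the difference was thus seen at called boundaries alone. The lowest boundary of each end lay at 490000 on 2L (-1.59), 830000 on 3L (-1.48), 27200000 on 3R (-1.61) and 550000 on X (-1.69, a 3.22-fold lower interaction across than within). The highest were at -0.63 on 2L, -0.18 on 3L, -0.48 on 3R and -0.09 on X. In raw di-tags the medians were -0.995 at the ends and -0.784 elsewhere.

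**Figure D5:**
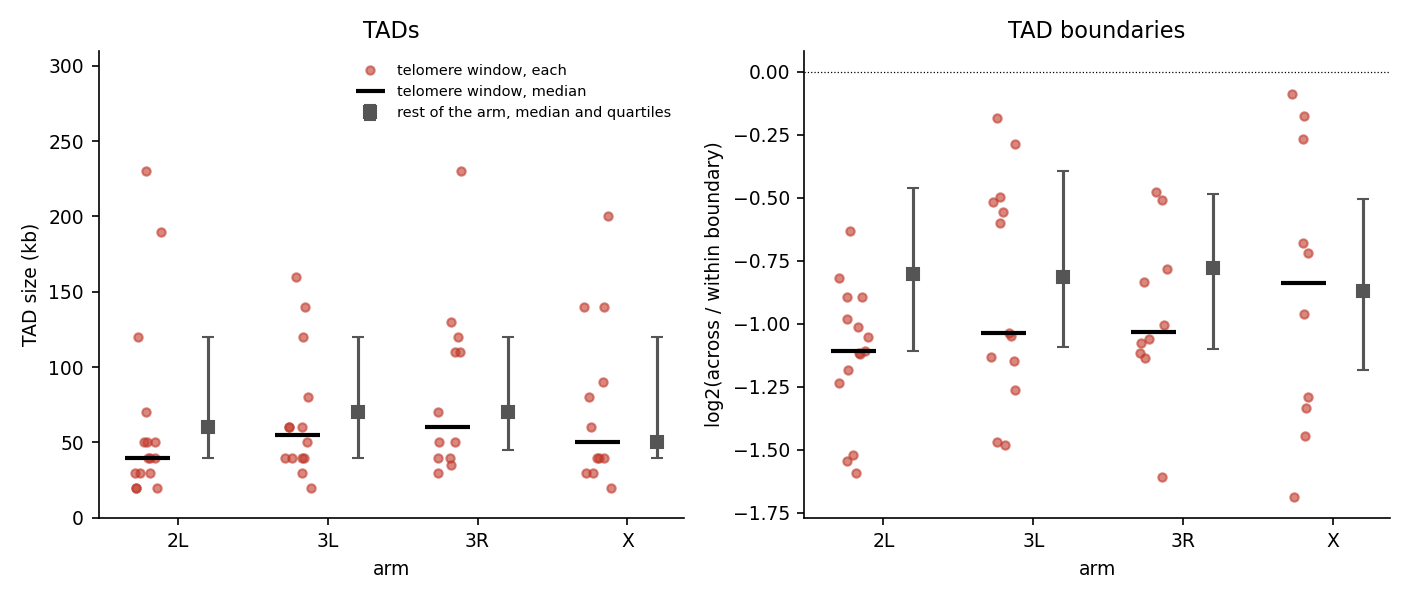
TAD sizes in kb (left) and log2 ratios of interaction across over within each TAD boundary (right) by arm, with each TAD or boundary of the telomere window as a point, their median as a bar, and the median and quartiles of the rest of the arm as a square with whiskers. The telomere windows of 2L, 3L and 3R have lower boundary medians (-1.11, -1.04 and -1.03) than the rest of their arms, and that of X (-0.84) does not.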

How the data were processed

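Hi-C on Kc167 cells was analysed from 3 deposited files of 1 map that pools 2 replicates. The authors aligned read pairs to Drosophila release 5 with HiCUP (Bowtie2 2.2.6 per the processing notes), removed invalid and duplicate di-tags and deposited raw counts of di-tags per pair of 10 kb bins. The deposited normalised signal is the same map after the authors' GOTHiC normalisation, and the TADs are the authors' HiCseg segments, deposited as coordinates.

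From the raw counts, inter-chromosome totals per bin gave expected counts, scaled to the total of each arm pair. Windows were 100 bins long, and those with under 50 filled bins were left out of ranks. Cis values were divided by the arm mean at equal distance. A block or bin was called at 1.25 times expected. No p-value was computed, since there is 1 map. Intervals assume independent di-tags. The calculations were checked on simulated maps with planted differences. Python 3.11.15, numpy 2.4.6, scipy 1.17.1 and pandas 2.3.3 were used.

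The members, windows and named regions were chosen with earlier results of these data known. Named were the ends, their outermost and largest TADs, their lowest boundary and their fullest bin pairs; the highest bins, the 2L-X patch and the counts of bins, short TADs and boundaries below -1 were chosen after their values were seen. Alternatives were the expected model, unit, window size and position, thin or heavy bins, capped counts, boundary square and leaving out each arm. A release 5 genome was not used here, so no sequence is given.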

Additional observations from a re-analysis of the deposited data

How the results depend on the processing

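No paired analysis was possible because the 2 replicates were pooled in 1 map and the columns carry no replicate. Leaving out 1 arm moved telomere-telomere contact between 1.27 (without X) and 2.14 (without 2L), its ratio to mid-mid contact between 1.18 and 2.09, centromere-centromere contact between 1.56 and 2.09, mid-mid contact between 0.973 and 1.07, telomere to mid-arm contact between 0.874 and 0.914 and the near over far ratio between 1.18 and 1.53.

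With all trans totals of the file, telomere-telomere contact was 1.74, telomere to mid-arm 0.934, telomere to centromere 0.667, centromere-centromere 1.15, the ratio to mid-mid 1.68, 3L to 3R ends 1.97 and near over far 1.44. The 3L to 3R value was 2.09 with totals taken within each arm pair and 1.65 without heavy bins. With each bin pair counted once, the values were 1.54 for telomere-telomere, 1.62 for centromere-centromere, 1.50 for the ratio to mid-mid, 1.64 for 3L to 3R and 1.36 for near over far. On the normalised signal, telomere-telomere contact was 2.63, telomere to mid-arm 0.956, telomere to centromere 1.67 (the direction reversed), mid-mid 0.861, centromere-centromere 5.99, the ratio to mid-mid 3.05, 3L to 3R 2.75, near over far 1.54 and cis interaction at 200 to 800 kb 0.794. On that signal without bins under 0.25 of the arm median, an alternative added after the data were seen, they were 2.55, 1.00 (telomere to mid-arm, no longer below 1), 1.38 (telomere to centromere, reversed), 0.923, 5.78, 2.76, 2.63 and 1.55. The cause of the reversals was not tested.

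In windows of 500 kb, telomere-telomere contact was 2.00, telomere to centromere 0.756, mid-mid 0.959, centromere-centromere 1.79, the ratio to mid-mid 2.09, 3L to 3R 2.56 and near over far 1.45. In windows of 2 Mb, telomere-telomere contact was 1.40, mid-mid 0.957, centromere-centromere 1.47, the ratio to mid-mid 1.46, 3L to 3R 1.36 and near over far 1.33. Without the outermost 100 kb, telomere-telomere contact was 1.56, the ratio to mid-mid 1.52 and 3L to 3R 1.63. A wide mid-arm gave 0.951 for telomere to mid-arm, and centromere windows moved inwards gave 1.12 among themselves. Without the arm pair 2L-X, also added later, centromere-centromere contact was 1.64 and near over far 1.31. Without 3R-X, added later too, contact between the outer 500 kb was 1.46 and between the inner 500 kb 1.39. With 3R-X they were at 2.00 and 1.44, so the gap between outer and inner parts was smaller without that arm pair. The share of di-tags leaving the arm was 13.9% when all contacts outside the arm were counted. Telomere-telomere contact was above 1 and above mid-mid contact under each of these alternatives. Depth limits single bin pairs, of which the fullest between chromosomes held 6 di-tags, and the outermost 100 kb of 3L, with 1 filled bin.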

Other observations

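The last megabase of 2R was outside the 4 ends described. Its 100 bins contacted the ends of 3L, 3R and X at 2.41 times expected (95% interval 2.34 to 2.48, 4566 di-tags against 1893). The 4 ends were at 1.63 among themselves, but that set includes pairs with 2L. Without 2L they were at 2.14, and the 2L end was at 1.37 with the ends of 3L, 3R and X. With the end of X the 2R end was at 2.99 (2.85 to 3.12), with that of 3R at 2.37 (2.24 to 2.50) and with that of 3L at 1.91 (1.81 to 2.01). The middle of 2R contacted the same ends at 0.957 (0.915 to 1.00), and its centromere-proximal megabase at 0.807 (0.755 to 0.861). The order of the 3 ends, X over 3R over 3L, has intervals that do not overlap. This end was examined after the values of the other ends were seen, and it shares their di-tag totals.

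The patch between 2L and X covered 16 blocks, 0 to 4 Mb from the 2L telomere by 4 to 8 Mb from the X telomere. Its blocks ranged from 1.07 for the 2L end with X at 7 to 8 Mb, to 4.73 for 2L at 2 to 3 Mb with X at 6 to 7 Mb. The highest block of 2L-3R, 7.11, lay 20 to 21 Mb from the 2L telomere and 8 to 9 Mb from that of 3R, and the highest of 3L-X, 3.51, lay 18 to 19 Mb and 11 to 12 Mb from theirs. The 4.73, 7.11 and 3.51 exceed every block between the 4 ends, the highest of which is 2.64. Their cause was not tested.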
